A study of Drosophila melanogaster with 9 samples.

Results

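The genes described here lie in the pericentromeric parts of 3 chromosome arms of Drosophila melanogaster, on 2L from 22.2 Mb, on 3L from 23 Mb and on 3R up to 4.2 Mb (dm6 coordinates). Of 17611 gene IDs counted in the series, 121 lie wholly in these regions. A gene was kept if it had 10 or more counts in 3 or more of the 9 libraries, which 77 genes did, and 4 cytosolic ribosomal protein genes were then dropped. The remaining 73 genes are called pericentromeric genes below. They comprise 21 of the 32 gene IDs of the 2L region, 39 of 66 on 3L and 13 of 23 on 3R, and the annotation lists 58 of them as protein coding, 12 as noncoding RNAs and 3 as pseudogenes. In 7 of them fewer than 3 groups had 10 counts in at least 2 libraries, so they may have passed through the group where they are high. They include Marf1, lncRNA:CR45177, lncRNA:CR46123 and CR33294.

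RNA selected on oligo dT from whole first instar larvae was sequenced in 3 groups of 3 libraries: wild-type males, males of the genotype roX1[ex6] roX2[9-4] that lack both roX RNAs (roX-KO males below), and wild-type females. The series asks how the roX RNAs act on transcription, and its title concerns repression on the autosomes. Nothing in the labels ties the replicates to separate cultures, so the spread behind each p-value is that between libraries and may be technical. The protocol text of the female samples also names males. In a whole larva, fewer cells of a type and less RNA per cell cannot be told apart.

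Pericentromeric DNA is packed as heterochromatin, a compact state rich in repeats that carries histone H3 methylated at lysine 9 and bound by HP1. Genes moved next to such chromatin are often silenced, whereas genes that reside in it, such as light and rolled, are known to depend on it for their normal expression. The roX RNAs are noncoding parts of the male-specific MSL complex, which binds the male X chromosome and raises its transcription.

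Between 17318293 and 18020359 counts fell in genes in each library. The counts of roX1 were 4964 to 6002 in wild-type males, 52 to 68 in roX-KO males and 314 to 440 in females, so the libraries matched their labels. Sums over marker genes of other tissues also differed between groups. For gut they were 782 to 1009 CPM (counts per 1000000 in genes) in wild-type males, 1409.9 to 1739.8 in roX-KO males and 747 to 1432 in females, for blood cells 282 to 314, 114 to 117 and 323 to 332, and for fat body 2813 to 3459, 2009 to 2094.5 and 1595 to 2004, where Lsp1alpha, Lsp2 and Fbp1 were near 0. The glial gene repo stood at 5.43 ± 0.681, 8.92 ± 0.633 and 10.1 ± 2.21 CPM (SD, n = 3 each) in the same order. Replicates of the male groups correlated over genes at Pearson's r of 0.99 to 0.997. Wild-type female 3 stood apart, with r of 0.929 and 0.934 to females 1 and 2, and results that rest on the females are given with and without it.

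The pericentromeric genes were sparse and long. There were 16.1 of them per Mb on 2L, 7.67 on 3L and 3.10 on 3R, where the rest of these arms held 88.0, 96.0 and 100.4 genes per Mb past the same filter. Their median annotated span was 8.39 kb, against 2.47 kb for the 6959 other genes of the 3 arms and 2.72 kb for the 534 genes in the 2 Mb next to the regions. Exons left a median of 64.7% of the span uncovered, against 16.3% for the other genes. The span reached 50 kb in 11 pericentromeric genes (15.1%, against 2.28% of the other genes), and the longest was Snap25 with 225 kb. Their levels were ordinary: the median gene had 10.3 CPM per kb of exon, against 10.4 for the other genes.

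Levels per exon length spanned a wide range. In wild-type males ND-MLRQ, a subunit of respiratory complex I on 3L, stood at 554 ± 65.7 CPM per kb (SD, n = 3). Tim17b on 3R, part of the inner membrane protein import channel, stood at 194 ± 12.3, and its partner Tim23 on 2L at 161 ± 24.8. The lowest level was that of lncRNA:CR46482 on 3L, with 0.0923 ± 0.0147 CPM per kb. Each of the mitochondrial genes named had the highest level per kb among the pericentromeric genes of its arm in wild-type males, and female 3 was the highest female library in all of them.

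In roX-KO males more pericentromeric genes were higher than lower relative to wild-type males. Of 72 genes tested with edgeR's quasi-likelihood test at an adjusted p of 0.05, 40 were higher (55.6%) and 11 lower (15.3%). Over all 11172 genes tested, 31.4% were called higher and 32.1% lower, and over the other genes of the 3 arms 34.4% and 27.8%. The median log2 fold change was 0.33, against 0.02 over all genes tested, 0.08 over the other genes of the arms and 0.17 over the 2 Mb flanks, where 212 of 522 genes (40.6%) were higher. Most changes were moderate. By at least 2-fold 8 genes were called higher and 2 lower, where 580 and 978 of 11152 genes past the same count filter were. The 8 include lncRNA:CR46123 and CR33294, which reached 10 counts in 3 roX-KO, 2 female and 0 wild-type male libraries. Both passed the filter only with the roX-KO libraries. All 3 roX-KO libraries lay above all 3 wild-type male libraries in 38 genes and below them in 12, where 34.7% of all genes did so in each direction. Scaled by library totals, which moved the median of all genes from 0.02 to 0.25, 49 were higher and 6 lower, where 48.9% and 21.4% of all genes tested were. In the authors' deposited table of the male libraries 33 pericentromeric genes were higher and 10 lower, and 42 were called the same way in both analyses. The remaining one, CG40472 on 3L, had a log2 fold change of -1.36 in the authors' deposited table and was not tested here because its counts of 4 to 19 in the male libraries did not pass the edgeR filter.

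**Figure D1:**
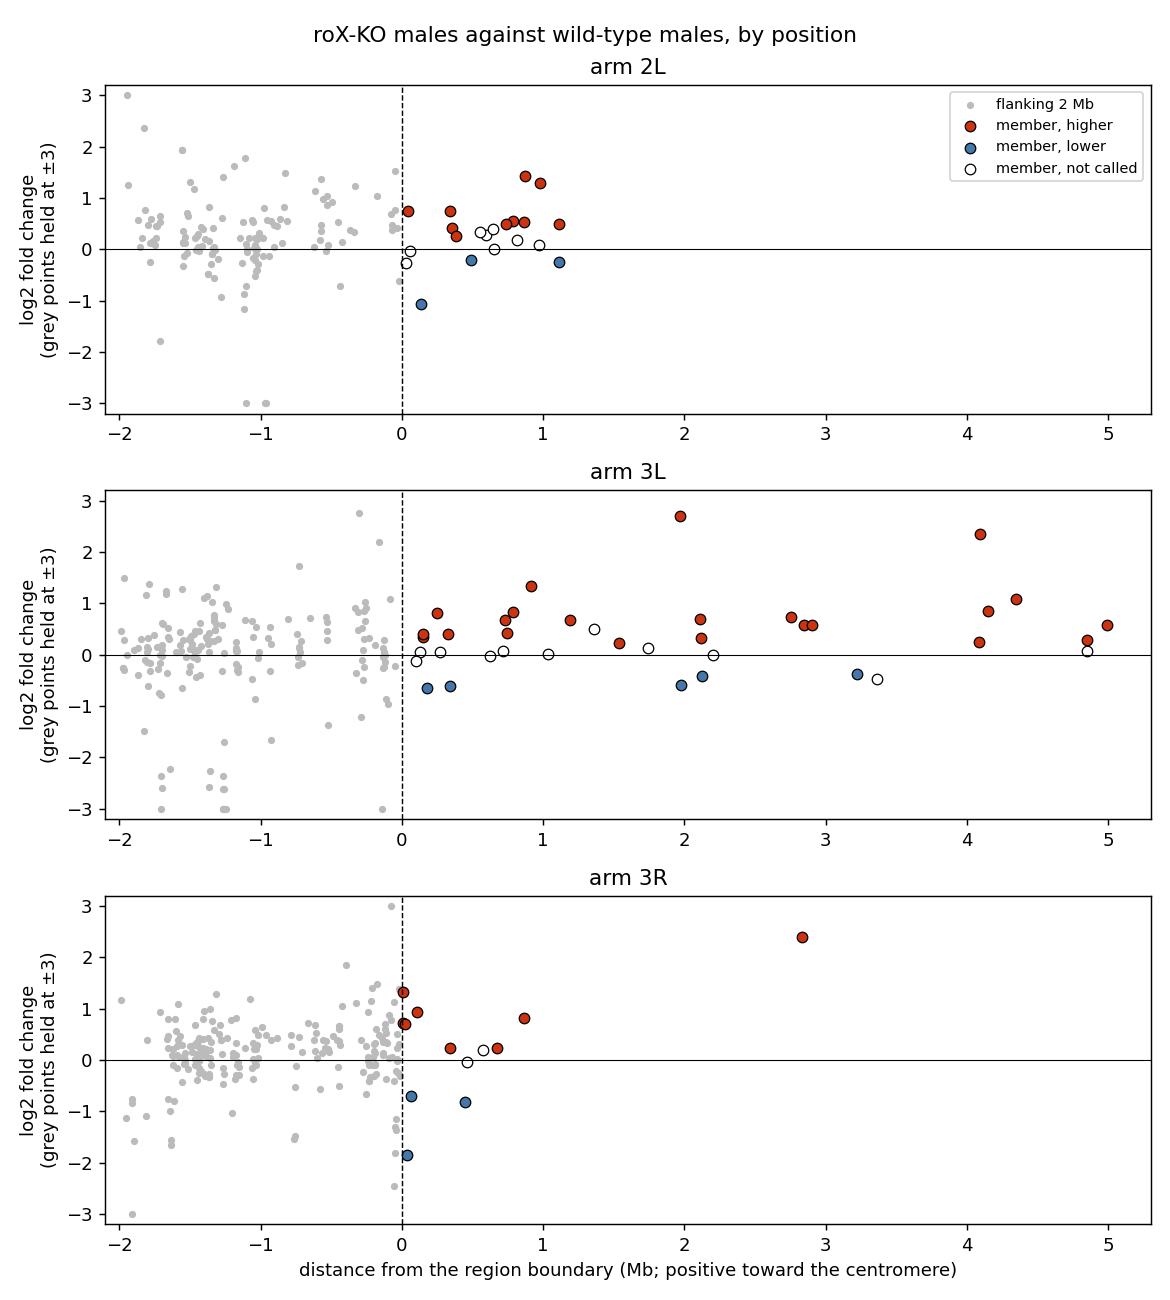
Log2 fold change of roX-KO against wild-type males for each gene (vertical axis; log2) against the distance of the gene's middle from the region boundary in Mb (horizontal axis; positive toward the centromere), in 1 panel per arm. Circles are the 72 pericentromeric genes tested, with 40 called higher in red, 11 called lower in blue and the rest white, and grey points are genes of the flanking 2 Mb; red circles lie on both sides of the middle of the 3L region, and on 3R all but 1 of the genes lie close to the boundary.

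More pericentromeric genes were higher than lower on each arm, but on 2L the share called higher was close to that of the flank. On 2L 10 of 21 pericentromeric genes (47.6%) were higher and 3 lower, against 60 (46.2%) and 21 of 130 genes in the 2 Mb flank. The median log2 fold change was 0.33, against 0.09 for the other genes of the arm and 0.22 for the flank. On 3L 22 of 38 (57.9%) were higher and 5 lower, against 65 (36.5%) and 46 of 178 in the flank. The median was 0.33, against 0.06 for the other genes and 0.11 for the flank. On 3R 8 of 13 (61.5%) were higher and 3 lower, against 87 (40.7%) and 45 of 214 in the flank. The 8 include lncRNA:CR46123 and CR33294, which passed the count filter only with the roX-KO libraries, where they are high. The median was 0.24, against 0.09 for the other genes and 0.17 for the flank. On 2L 9 of the 17 genes within 1 Mb of the end of the assembled arm were higher, with a median of 0.40. From 1 to 2 Mb 1 of 4 was higher and 1 lower, with a median of -0.14. Along 3L, the longest of the regions, 5 of the 6 genes within 1 Mb of the arm end were higher, with a median of 0.71. From 2 to 3 Mb 5 of 7 were higher with a median of 0.57, from 3 to 4 Mb 3 of 6 tested with 0.37, and from 4 to 5 Mb 8 of 16 with 0.21. The 1 to 2 Mb step of 3L held 3 genes, of which 1 was higher and 1 lower, with a median of -0.38. On 3R 4 of the 6 genes at 4 to 5 Mb, next to the boundary, were higher with a median of 0.71, and CR33294 is among these 4. At 3 to 4 Mb 3 of 6 were higher with a median of 0.22. The 1 gene at 1 to 2 Mb was lncRNA:CR46123 (2.39), so that step rests on a gene that passed only with the roX-KO libraries. Spearman's rho between the fold change and the distance from the arm end was -0.12 over the 72 genes, -0.25 on 2L, -0.22 on 3L and -0.06 on 3R, given as a description because genes of 1 arm share libraries and neighbours.

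The genes were grouped by known role after their values had been seen, and 34 coding genes could be placed. The groups are small, and their counts are to be read against the 55.6% higher among all pericentromeric genes and the 31.4% over all genes tested. Of 5 genes of chromatin and transcription 4 were higher. Set1, the methyltransferase of histone H3 lysine 4 (FBgn0040022, 3L, 25107594 to 25115180), had 49.9, 43.9 and 56.6 CPM in wild-type males, 85.4, 77.6 and 78.7 in roX-KO males and 60.2, 52.2 and 36.3 in females. All roX-KO libraries lay above the other 6, with a log2 fold change against wild-type males of 0.69 ± 0.09 (SE, n = 3 per group; edgeR adjusted p = 3.85e-05). For vtd, the Rad21 subunit of cohesin (FBgn0260987, 3L, 27136525 to 27157999), the CPM were 68.5, 67.3 and 74.6 in wild-type males, 127, 122 and 126 in roX-KO males and 69.6, 57.9 and 59.2 in females. Again the roX-KO libraries stood above all others, with a log2 fold change of 0.84 ± 0.07 (edgeR adjusted p = 6.54e-07). MED21, a Mediator subunit, was higher by a log2 fold of 0.32 and Parp1, a poly(ADP-ribose) polymerase, by 0.24, the latter close to the threshold (edgeR adjusted p = 0.0486). The call of Parp1 was lost without roX-KO male 1 or 3 or wild-type male 1 or 2, at 0.17 to 0.22. Tif-IA, a factor for RNA polymerase I, was not called (-0.03).

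Of 4 genes of RNA processing and translation 3 were higher. Dbp80, a DEAD-box RNA helicase (FBgn0024804, 3L, 27279316 to 27422159), had the largest increase of a coding gene with a role assigned. Its CPM were 55.0, 60.01 and 56.9 in wild-type males, 127, 113 and 122 in roX-KO males and 56.8, 55.6 and 47.3 in females. The roX-KO libraries lay above all others, with a log2 fold change against wild-type males of 1.08 ± 0.08 (SE, n = 3 per group; edgeR adjusted p = 1.23e-07). The splicing factor Spf45 (0.53) and the translation initiation factor eIF4B (0.29) were also higher, and Spf30 was not called (0.07).

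Membrane traffic, adhesion and signalling gave 5 higher genes of 6. The gene light (lt, FBgn0002566, 2L, 22924795 to 22943135), which encodes a subunit of the HOPS tethering complex and is a classical heterochromatic gene, had 56.2, 47.9 and 56.7 CPM in wild-type males, 77.7, 71.5 and 77.2 in roX-KO males and 58.8, 52.7 and 43.9 in females. Its neighbour concertina (cta, FBgn0000384, 2L, 22981816 to 22992951), a G protein alpha subunit needed in gastrulation, had 19.0, 16.9 and 20.2, then 26.9, 27.8 and 27.2, then 22.0, 19.8 and 15.4. In both genes the roX-KO libraries lay above all others, with log2 fold changes against wild-type males of 0.50 ± 0.08 and 0.55 ± 0.09 (SE, n = 3 per group; edgeR adjusted p = 0.000223 and 0.000133). Alpha-Cat, the actin-binding link of cadherin junctions, was higher by 0.39, Vps11 of the HOPS complex by 0.34 and Slmap by 0.27. CkIIalpha, the catalytic subunit of casein kinase 2, was not called (-0.13).

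Mitochondrial genes were split. Nubpl, whose human counterpart assembles complex I (FBgn0032986, 2L, 22239916 to 22246988), had 43.7, 45.6 and 46.5 CPM in wild-type males, 81.6, 72.9 and 73.1 in roX-KO males and 50.4, 46.7 and 60.1 in females, and its log2 fold change was 0.75 ± 0.08 (SE, n = 3 per group; edgeR adjusted p = 3.42e-06). The mitochondrial ribosomal gene mRpS5 was higher by 0.23. The other 4 called genes fell: the complex I subunits ND-MLRQ (-0.61) and ND-AGGG (-0.59), the complex III subunit UQCR-11 (-0.42) and Tim23 (-0.25). For ND-MLRQ the CPM were 273, 339 and 283 in wild-type males, 198, 197 and 187 in roX-KO males and 241, 218 and 441 in females. The roX-KO libraries lay below the other 6, and the females spread below and above the wild-type males. Scaled by library totals, Tim23 (-0.02) and UQCR-11 (-0.19) were no longer called, and the call of Tim23 was also lost without any 1 of the roX-KO males or without wild-type male 2, at -0.27 to -0.12. The summed level of 5 muscle genes moved with these falls, with 23973 to 26551 CPM in wild-type males, 12724 to 13797 in roX-KO males and 21431 to 23731 in females, and its part in them was not tested. Of the 5 muscle genes, wupA and up lie on the X chromosome and bt on chromosome 4.

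Of 5 genes of neurons and peptide hormones 4 were higher. The nicotinic acetylcholine receptor subunit nAChRalpha4 (FBgn0266347, 3L, 23206669 to 23287448) had 12.3, 9.49 and 11.3 CPM in wild-type males, 19.4, 19.6 and 18.6 in roX-KO males and 16.1, 15.6 and 8.18 in females. Snap25, a SNARE protein of synaptic vesicle fusion (FBgn0011288, 3L, 24074180 to 24299205), had 32.2, 26.05 and 35.0, then 51.7, 45.1 and 51.2, then 45.5, 44.5 and 27.4. The roX-KO libraries lay above the wild-type males in both genes, and females 1 and 2 lay above the wild-type males in both, with female 1 just above the lowest roX-KO library in Snap25. The log2 fold changes against wild-type males were 0.81 ± 0.10 for nAChRalpha4 and 0.67 ± 0.11 for Snap25 (SE, n = 3 per group; edgeR adjusted p = 2.29e-05 and 0.000127). Genes for the peptides Dsk (drosulfakinin, 0.72) and Gpb5 (a glycoprotein hormone subunit, 0.50) were higher too, and the homeobox gene scro was not called (0.13). The call of Dsk was lost without roX-KO male 1 or wild-type male 1 or 3, at 0.56 to 0.65. The sum of 4 neuronal marker genes was 219 to 282 CPM in wild-type males, 402 to 419.5 in roX-KO males and 203 to 369.9 in females, and its part in these changes was not tested. Of these markers the autosomal nSyb (0.87), brp (0.88) and Syt1 (0.84) were higher in roX-KO than in wild-type males. The marker elav, which lies on the X chromosome, was lower (-0.53).

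Spok, an enzyme of ecdysone synthesis (FBgn0086917, 3R, 3322810 to 3354486), had 8.27, 8.70 and 11.2 CPM in wild-type males, 17.98, 15.8 and 15.6 in roX-KO males and 11.3, 8.41 and 10.5 in females. The roX-KO libraries were the highest, with a log2 fold change of 0.82 ± 0.12 (SE, n = 3 per group; edgeR adjusted p = 7.85e-05). The other ecdysone gene, nvd, which starts the pathway, had a log2 fold change of 0.51 and missed the threshold (edgeR adjusted p = 0.0612).

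Among metabolic genes the fatty acid synthase FASN3 was higher (0.73) and Gfat1, the entry enzyme of hexosamine synthesis, was lower (-0.70), while the chitinase Cht10 was not called (0.17). Gfat1 (FBgn0287209, 3R, 4126442 to 4137882) had 335, 329 and 344 CPM in wild-type males, 208, 207 and 201 in roX-KO males and 371, 369 and 302 in females, so that the roX-KO libraries formed a group below the other 6.

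The 24 coding genes without an assigned role included the largest fall. CG40198 (FBgn0058198, 3R, 4160610 to 4162235) had 178, 197 and 194 CPM in wild-type males, 51.0, 52.7 and 54.0 in roX-KO males and 89.3, 101 and 114 in females. The 3 groups did not overlap, and the log2 fold change between the male groups was -1.84 ± 0.07 (SE, n = 3 per group; edgeR adjusted p = 5.51e-10). CG41128 also fell (-0.82), as did CG40160 (-0.38), while CG40470 (1.33), CG42402 (0.93), CG12581 (0.69), l(3)80Fg (0.58) and l(3)80Fj (0.57) rose.

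**Figure D2:**
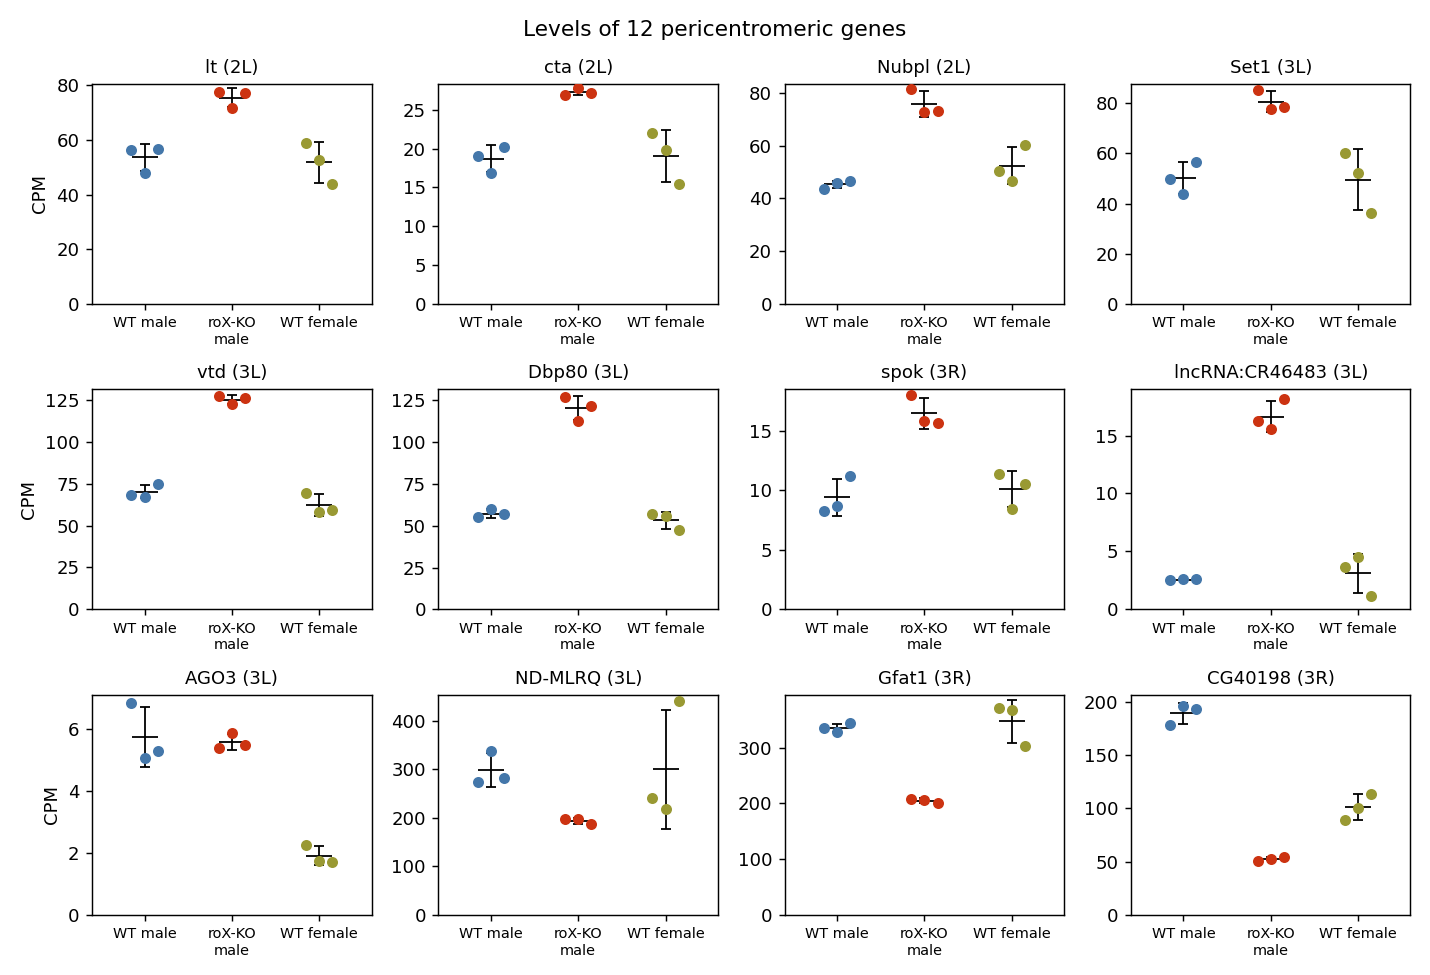
CPM (vertical axis; counts per 1000000 in genes, from 0) of 12 named pericentromeric genes in each library of the 3 groups (horizontal axis). Points are libraries, the short line is the group mean and the bar 1 SD of 3 libraries; in lt, cta, Nubpl, Set1, vtd, Dbp80, spok and lncRNA:CR46483 the roX-KO libraries lie above the other 6, and in ND-MLRQ, Gfat1 and CG40198 below them.

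Noncoding RNAs had the largest increases. Of 12 tested 8 were higher and the other 4 were not called, with a median log2 fold change of 0.65, where 32.2% of 395 other noncoding genes of the arms were higher with a median of 0.19. The greatest was lncRNA:CR46483 (FBgn0287614, 3L, 24957239 to 24975495), with 43, 43 and 43 counts in wild-type males, 322, 293 and 364 in roX-KO males and 67, 82 and 18 in females. This was a log2 fold change of 2.70 ± 0.12 (SE, n = 3 per group; edgeR adjusted p = 1.71e-09). The roX-KO libraries were far above the rest, and female 3 was the lowest library. A pair of rarer RNAs were higher as well. For lncRNA:CR46123 (3R, 1366234 to 1366601), the pericentromeric gene nearest the 3R arm end, the counts were 7, 9 and 5, then 54, 33 and 43, then 21, 13 and 3. For lncRNA:CR45177 (3L, 27091705 to 27092199) they were 5, 6 and 10, then 43, 43 and 41, then 14, 15 and 8. Their log2 fold changes were 2.39 and 2.36 between the male groups, and both rest on few counts in wild-type males. At least 10 counts were reached by lncRNA:CR46123 in 3 roX-KO, 0 wild-type male and 2 female libraries. It thus passed the count filter only with the group where it is high. For lncRNA:CR45177 these were 3, 1 and 2 libraries. Both genes are counted among the 8 higher ones and in the median above. On 2L lncRNA:CR43242 (1.42) and lncRNA:CR46450 (1.30) were higher. Exons of other genes covered at least 10% of 5 members, lncRNA:CR46268, Vps11, asRNA:CR45164, MED21 and asRNA:CR45182. For lncRNA:CR46268 the overlap is on the same strand, and for the other 4 on the opposite one. The strand setting of the counting is not given in the sources used here, so reads of those 4 and their overlapping partners cannot be told apart, and the level of lncRNA:CR46268 is uncertain as well.

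**Figure D3:**
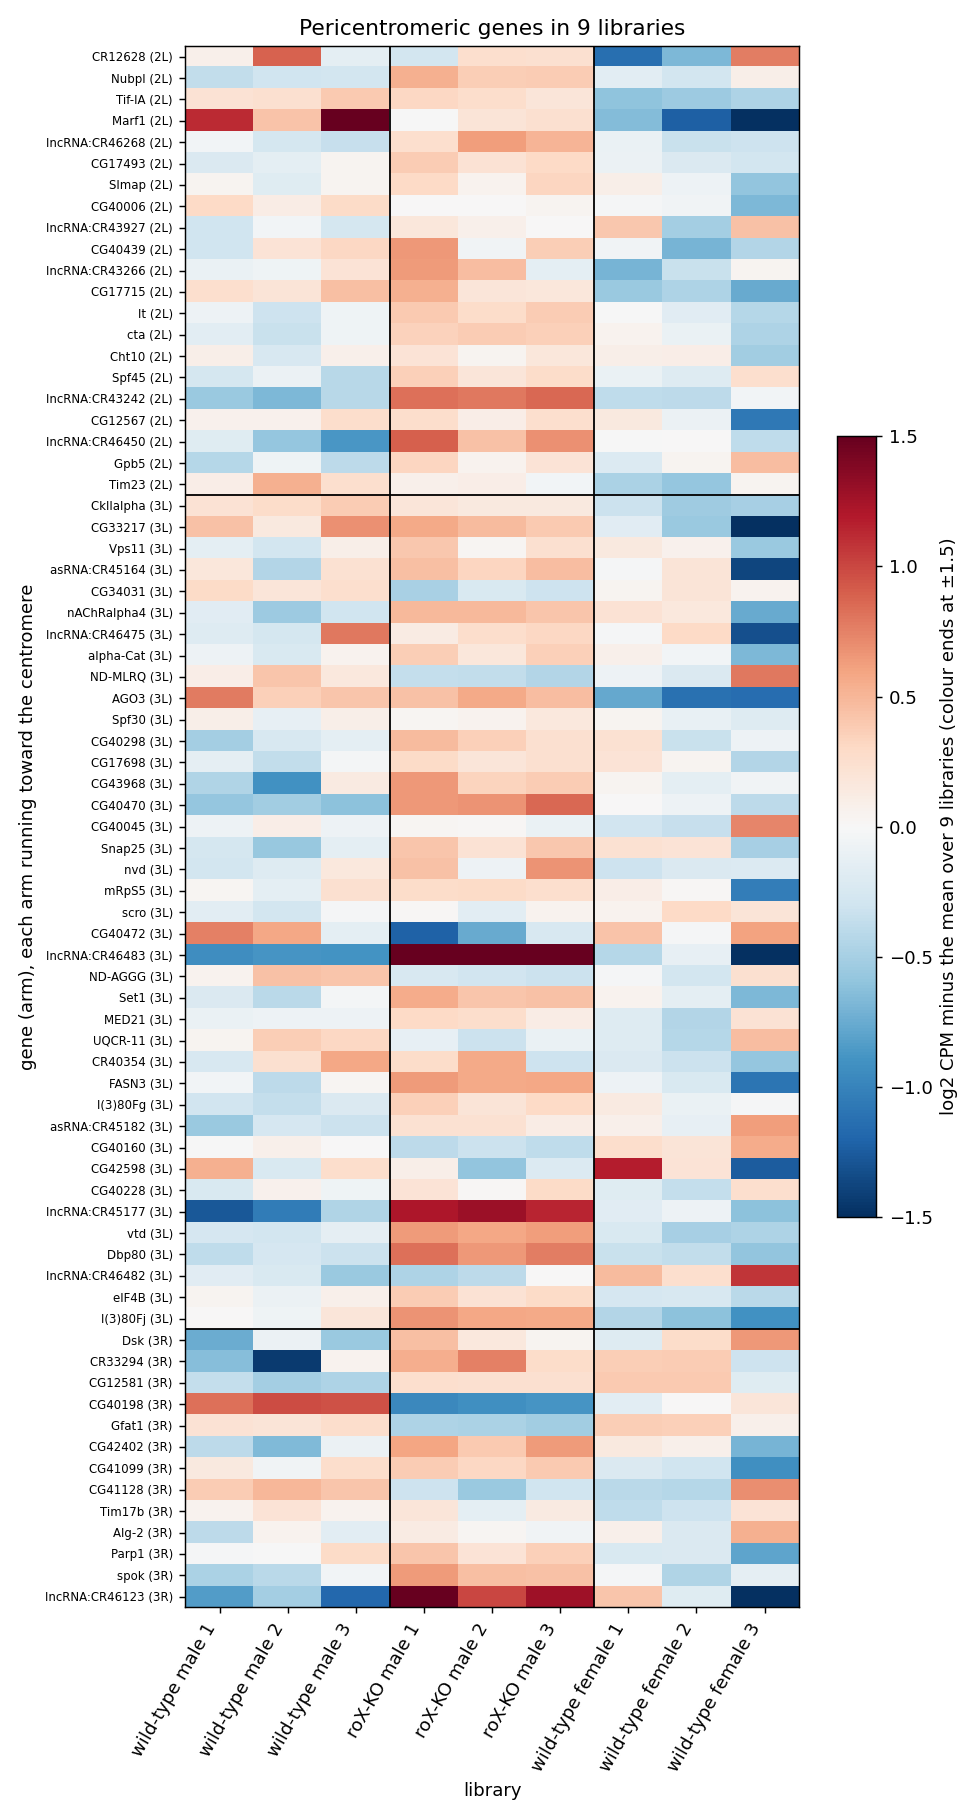
Log2 CPM of the 73 pericentromeric genes in the 9 libraries (columns), as the difference from the gene's mean over all libraries (colour, log2; red higher, blue lower, colours held at ±1.5), with genes in order along each arm toward the centromere and black lines between arms and between groups. The 3 roX-KO columns are mostly red, with lncRNA:CR46483 the deepest, and female 3 differs from the other females in many rows.

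How far the pericentromeric genes stood from the rest of the arms varied with gene span. Among genes spanning 10 kb or more 19 of 34 pericentromeric genes (55.9%) and 614 of 1105 other genes (55.6%) were higher, with median log2 fold changes of 0.34 and 0.32. From 2 to 10 kb the shares were 9 of 17 (52.9%) and 1127 of 2918 (38.6%), with medians of 0.27 and 0.11. Under 2 kb they were 12 of 21 (57.1%) and 637 of 2844 (22.4%), with medians of 0.33 and -0.06. In this comparison the shares were nearly equal among long genes and farthest apart among short ones. Against wild-type females they were not: at 10 kb or more 14 of 34 pericentromeric genes (41.2%) and 7.88% of the other genes were higher in roX-KO males, and under 2 kb 4 of 22 (18.2%) and 9.36%. The 12 short genes that were higher comprised 6 noncoding RNAs and 6 coding genes, among them Spf45, MED21, Gpb5 and Dsk. They include lncRNA:CR46123, which passed the count filter only with the roX-KO libraries and was also higher against females. CR33294, among the 9 higher genes of 2 to 10 kb, passed only with those libraries too. For the short genes MED21, asRNA:CR45164 and asRNA:CR45182, reads cannot be told apart from those of overlapping genes. By level, 7 of 19 genes with a mean under 5 CPM were higher and 2 lower, against 32.6% and 21.9% of the other genes of the arms. The 7 include lncRNA:CR46123 and CR33294. At 5 to 50 CPM 20 of 28 were higher and 2 lower, against 38.0% and 26.1%, and at 50 CPM or more 13 of 25 were higher and 7 lower, against 29.7% and 35.1%.

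**Figure D4:**
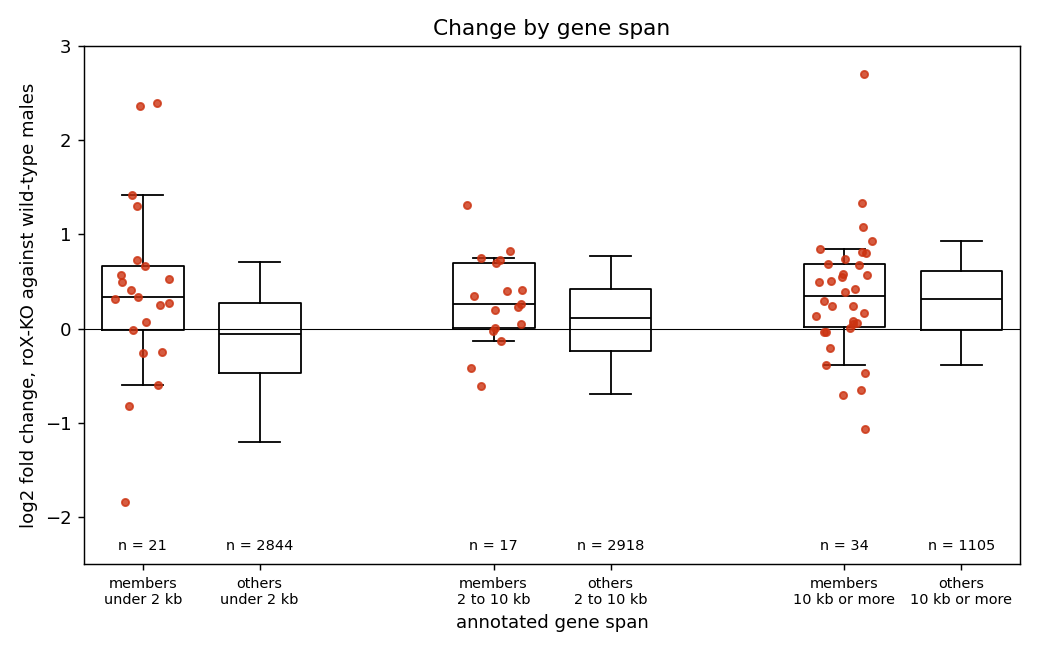
Log2 fold change of roX-KO against wild-type males (vertical axis; log2) of pericentromeric genes and of the other genes of 2L, 3L and 3R, in 3 classes of annotated span (horizontal axis). Boxes show the quartiles and median, whiskers the central 80% of genes, and red points single pericentromeric genes; the medians were 0.33 and -0.06 under 2 kb and 0.34 and 0.32 at 10 kb or more.

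Adjacent genes were called alike in some pairs and in opposite directions in others. Adjacent and consecutive here refer to the pericentromeric genes only, so genes left out of the set may lie between them. Of 21 adjacent pairs less than 10 kb apart, both genes were higher in 9, which include Vps11 with asRNA:CR45164, Set1 with MED21 and l(3)80Fg with asRNA:CR45182, pairs that overlap. Also among the 9 are CG12581 with CR33294 and CR33294 with Dsk, and Dsk lies within the span of CR33294. CR33294 passed the count filter only with the roX-KO libraries. In 4 pairs they moved in opposite directions: alpha-Cat with ND-MLRQ, lncRNA:CR46483 with ND-AGGG, MED21 with UQCR-11 and Gpb5 with Tim23. Among 47 tested pairs farther apart both were higher in 12, both lower in 1 and opposite in 9. The 12 include lncRNA:CR46123 with spok, and lncRNA:CR46123 also passed the filter only with the roX-KO libraries. With 55.6% of the single pericentromeric genes higher, pairs of higher genes also arise without any tie between neighbours, and such a tie was not tested. The longest runs of consecutive higher genes held 4 genes each, from CG40298 to CG40470 over 0.26 Mb of 3L and from CG40228 through vtd to Dbp80 over 0.34 Mb nearer the centromere. At the edges of the regions, CR12628 on 2L and CkIIalpha and CG33217 on 3L, just inside, were not called (-0.26, -0.13 and 0.05). Nubpl (0.75) on 2L and Dsk (0.72) and CR33294 (1.32) on 3R, also just inside, were higher. Just outside, CG12768 on 3L (1.09) and aux on 3R (0.31) were higher, CG3635 on 2L (-0.61) and CG14636 on 3R (-0.30) were lower, and Mes2 on 3L was not called (-0.23). The 2 genes that cross a boundary were left out: beta-Man on 3R, which was higher (0.20, edgeR adjusted p = 0.0496), and nrm on 3L, which was not called (-0.20).

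Measured within each library, the shift of the pericentromeric genes against the other genes of their arms carries no scaling factor. It is the median over pericentromeric genes of a gene's log2 CPM minus its mean over the 9 libraries, less the same median over the other genes. The shifts were -0.11, -0.14 and 0.03 in wild-type males, 0.27, 0.16 and 0.19 in roX-KO males and -0.01, -0.17 and -0.38 in females. The roX-KO libraries were above all others, and the other groups overlapped. The group means were -0.07 ± 0.09 (SD, n = 3) in wild-type males, 0.21 ± 0.06 in roX-KO males and -0.19 ± 0.19 in females, a difference of 0.28 between the male groups or 1.21-fold. By arm the difference between the male groups was 0.20 on 2L, 0.36 on 3L and 0.33 on 3R. For the genes of the 2 Mb flanks, measured against the rest of the arms, it was 0.11, and against these flanks alone the pericentromeric genes differed by 0.17. In the 23 genes that lie past the midpoint of their region, toward the centromere, it was 0.39. The other genes of the arms were not matched for span (median 2.47 kb, against 8.39 kb), and the part of span in these shifts was not tested.

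**Figure D5:**
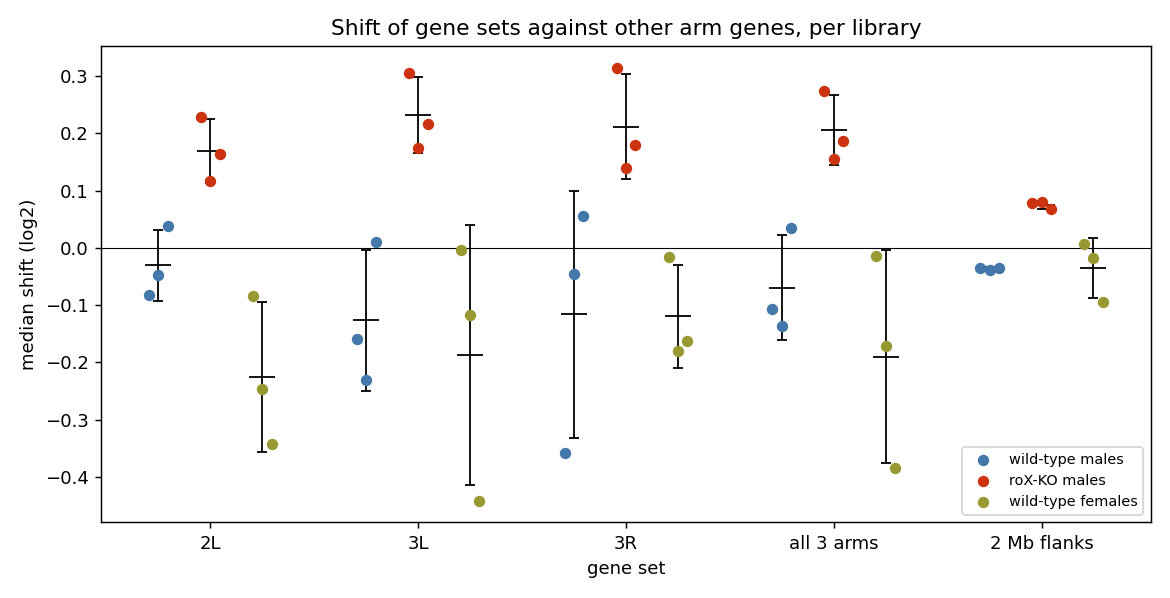
Median log2 shift (vertical axis) in each library of the pericentromeric genes of 2L, 3L, 3R and all 3 arms against the other genes of the same arms, and of the 2 Mb flanks against the rest (horizontal axis). Points are libraries, lines the group means and bars 1 SD of 3 libraries; over all 3 arms the roX-KO males lie at 0.16 to 0.27, above all other libraries.

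Between wild-type females and wild-type males few pericentromeric genes were called. Of 69 tested, 1 was higher (CG12581) and 7 were lower, where 10.8% and 11.2% of all genes tested were. The median log2 fold change was -0.04, against 0.04 over all genes. The largest falls were those of the germline genes Marf1, needed in oogenesis, and AGO3, a Piwi-class Argonaute of the piRNA pathway. AGO3 (FBgn0250816, 3L, 23554593 to 23689640) had 6.86, 5.08 and 5.3 CPM in wild-type males, 5.39, 5.89 and 5.49 in roX-KO males and 2.27, 1.75 and 1.72 in females. The females lay below all males, with a log2 fold change of -1.57 ± 0.21 against wild-type males (SE, n = 3 per group; edgeR adjusted p = 0.00299), and the roX-KO males were not called (-0.04). Marf1 had 36, 21 and 51 counts in wild-type males, 18, 20 and 22 in roX-KO males and 10, 6 and 3 in females, and was lower in both the females (-2.53 ± 0.47) and the roX-KO males (-1.06 ± 0.30) than in wild-type males (edgeR adjusted p = 0.0107 and 0.00781). The summed level of the germline markers vas, piwi and aub was 27.2 to 31.9 CPM in wild-type males, 29.3 to 29.6 in roX-KO males and 6.45 to 7.06 in females, and its part in these falls was not tested. Between the male groups the markers differed in direction, with vas (-0.32) and aub (-0.54) lower and piwi (0.51) higher in roX-KO males (edgeR adjusted p = 0.0224, 0.00293 and 0.00178).

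The other genes called lower in females were Tif-IA (-0.82), CkIIalpha (-0.73), CG17715 (-0.89), l(3)80Fj (-0.68) and CG40198 (-0.89). Tif-IA (2L, 22249876 to 22258260) had 78.4, 79.4 and 88.6 CPM in wild-type males, 83.5, 81.0 and 76.5 in roX-KO males and 44.1, 46.0 and 48.6 in females, with the male groups overlapping and the females well below. CG12581 (3R, 4174632 to 4186751) had 129, 116 and 120 CPM in wild-type males, 196, 195 and 195 in roX-KO males and 216, 217 and 145 in females. It was higher than in wild-type males in roX-KO males (0.69) and in females (0.68), the latter a call lost without any 1 library other than female 3, at 0.57 to 0.72. The fall of l(3)80Fj in females was no longer called without female 2 or any 1 of the wild-type males, at -0.73 to -0.63. Without female 3 the calls in females numbered 11 higher and 20 lower of 72 tested, where 26.1% of all genes tested were called in each direction. Without female 3 and wild-type male 2, whose deviations from their group means correlated at r of 0.82, they numbered 15 and 20 of 71, where 31.1% and 31.0% of all genes were called.

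Relative to wild-type females, roX-KO males also had more higher than lower pericentromeric genes. Of 72 tested 25 were higher (34.7%) and 3 lower (CG40160, Gfat1 and CG40198), where 10.7% and 16.6% of all genes tested were. The median log2 fold change was 0.44, against -0.01 over all genes. The comparison shares the roX-KO libraries with the one against wild-type males, so the 2 are not independent. Genes higher than in wild-type females included Nubpl (0.52), lt (0.53), Set1 (0.69), vtd (1.00), Dbp80 (1.17), FASN3 (0.99), spok (0.70), Parp1 (0.70) and lncRNA:CR46483 (2.39). The calls of Nubpl, lt, Set1, spok and Parp1 against females were lost without any 1 of the roX-KO males, and the 25 higher genes became 10, 12 and 10 without roX-KO male 1, 2 or 3, where 4.64%, 5.44% and 4.84% of all genes tested were higher. Without female 2 they became 14, where 7.26% of all genes were. The 5 genes of neurons and peptide hormones were not called in this comparison, with log2 fold changes of -0.22 to 0.51. Tif-IA, CG17715, CkIIalpha and AGO3 were higher than in females although not called between the male groups. Without female 3 the calls numbered 44 higher and 8 lower of 73, where 30.0% and 31.6% of all genes were called.

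Known factors of heterochromatin, which lie elsewhere in the genome, were read from the same fits. Of 23 tested, 9 were higher and 3 lower in roX-KO than in wild-type males, with a median log2 fold change of 0.17, where 31.4% and 32.1% of all genes tested were called. Su(var)3-7, an HP1 partner, was higher (0.47), as were ADD1 (0.71), the H3K9 and H3K36 demethylase Kdm4A (0.53) and Lhr (0.50). Lower were vig (-0.82), vig2 (-0.45) and HP1b (-0.30), the last of which lies on the X chromosome. The other listed factors on the X, HP5 (-0.11), G9a (-0.17) and Hmr (-0.07), were not called. The gene that encodes HP1a was not called (-0.01). In females 5 of the list were lower than in wild-type males, where 11.2% of all genes tested were, with a median of -0.33 against 0.04 over all genes. They included the H3K9 methyltransferase Su(var)3-9 (-1.15).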

How the data were processed

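The authors deposited 1 table of read counts per gene for each of the 9 libraries and, for the male libraries, a table with adjusted p-values and log2 fold changes between them (per the file headers). The submitters' processing notes name dm6 and the tools DESeq2, HTSeq 2.0.2, SAMtools 1.13 and HISAT2 2.2.1, without their roles. Strand setting and annotation release: not given in the sources used here. Lines for reads with no gene held 45.7% to 47.9% of each library, and were left out, as were ambiguous and not uniquely aligned reads. Positions came from a dm6 annotation that matched 17556 of 17611 IDs. Distances are to the last annotated base of 2L and 3L or the first base of 3R.

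Each comparison was fitted on its 6 libraries with edgeR 4.0.16 (limma 3.58.1, R 4.3.3): filterByExpr (minimum count 10, total 15), TMM, robust quasi-likelihood F-test, Benjamini-Hochberg adjustment over all genes tested, threshold 0.05. CPM use TMM-scaled totals, and log2 CPM a prior count of 2. The shifts, medians and counts over members are descriptions without a test. The code was tested on simulated data. Alternatives were library totals, TMM from other arm genes, no filter, all 9 libraries in 1 fit, a replicate block, leaving out each library, DESeq2 1.42.0, a prior of 0.5, a minimum mean of 5 CPM, other comparison genes, the part of each region past its midpoint and overlap or gene class. Tables and figures used matplotlib 3.10.9, NumPy 2.4.6, pandas 2.3.3 and Python 3.11.15.

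The members and gene lists were chosen with earlier results of these data known. Genes were named by a rule: listed members with a known role, the 4 largest changes each way per arm among called genes above a mean log2 CPM of 1 whose groups did not overlap, the most abundant per exon length, those nearest the arm ends, and those at the boundaries. Other genes were named after their values were seen, to complete the role groups. Replicate numbers did not pair the samples. Same-numbered roX-KO and wild-type male libraries had deviations correlated at -0.0221, 0.0166 and -0.0173 over 9165 genes. Sequences, promoter motifs and GC content were not analysed here.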

Additional observations from a re-analysis of the deposited data

How the results depend on the processing

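Between the male groups the count of higher pericentromeric genes (40) kept within 28 to 49 under every alternative run, and was 32 to 39 when 1 library was left out. The count of lower genes (11) was 6 with library totals, 7 with all 9 libraries in 1 fit and 8 to 10 with 1 library left out. With 1 library left out 28.6% to 33.9% of all genes were lower. Library totals moved the median of all genes from 0.02 to 0.25, and the members' median stood 0.30 above it under both scalings. They gave 49 higher and 6 lower, where 48.9% and 21.4% of all genes were called, and turned Tif-IA to 0.21 and CG40006 to 0.023. With all 9 libraries 28 of the 40 higher genes kept their call. DESeq2 called 36 higher and 9 lower, where 28.3% and 30.9% of all genes were. The calls of Parp1 and Dsk were lost with DESeq2, and those of ND-MLRQ and alpha-Cat with all 9 libraries. The shift of 0.28 was 0.39 past the midpoint of each region, 0.17 against the flanks and 0.24 to 0.33 with 1 library left out.

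Female against male calls (1 higher, 7 lower) were 2 and 7 with library totals, where 11.2% and 9.97% of all genes were called. With all 9 libraries they were 5 and 11, where 15.5% and 15.3% were. With 1 library left out they were 0 to 11 and 6 to 20, where 3.84% to 26.1% and 5.4951% to 26.1% were. Both counts and both shares were highest without female 3. Without female 3 and wild-type male 2, an alternative chosen after seeing the data, they were 15 and 20, where 31.1% and 31.0% were. With 1 library left out, ND-MLRQ ranged from -0.37 to 0.19 and CG40045 from -0.29 to 0.32, both turning without female 3, and without that male too they were -0.27 and -0.23. Calls of roX-KO males against females (25 higher, 3 lower) ranged from 10 to 44 and 2 to 8 with 1 library left out, the highest without female 3. Of all genes 4.64% to 30.0% and 8.99% to 31.6% were then called. The lower count was 5 with all 9 libraries and with TMM from other arm genes, where 21.0% and 18.7% of all genes were lower. In this comparison CG40045 ranged from -0.32 to 0.28 and CG12581 from -0.17 to 0.11, turning without female 3. With the replicate number as a block the counts were 40 and 10 between the male groups, where 30.9% and 31.5% of all genes were called. In females they were 0 and 4, where 4.34% and 5.54% were, and for roX-KO males against females 19 and 4, where 7.97% and 13.3% were. The numbers only name the libraries. Counts under about 10 per library limit lncRNA:CR46123, CR33294 and Marf1. The spread between the female libraries limits the calls that involve them.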

Other observations

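The 4 ribosomal protein genes of the regions, which are outside the set described above, were split between the male groups. RpL15 on 3L, next to Dbp80, had 39715, 42531 and 37932 counts in wild-type males, 78923, 72863 and 82808 in roX-KO males and 45767, 55342 and 58020 in females, and was higher in roX-KO than in wild-type males by a log2 fold of 0.74 (edgeR adjusted p = 1.03e-05). RpL5 on 2L was higher by 0.32, and RpL10 (-0.08) and RpL21 (0.05) were not called. The 44 gene IDs of the regions that fell under the count filter summed to 40 to 44 counts per library in wild-type males, 75 to 91 in roX-KO males and 43 to 61 in females. These are raw sums without scaling. They were not set against genes under the filter elsewhere, so they do not show a trait of the regions. SuUR, on the list of heterochromatin factors, had 0 counts in all 9 libraries, and its exons lie under those of another gene on the same strand.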
